A study of Mus musculus with 16 samples.

Results

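Mouse bone marrow derived macrophages were examined for 53 genes of DNA replication and mitosis: 27 that act at replication origins and forks or supply nucleotides and chromatin in S phase, 22 that act in mitosis, and 4 regulators of the step into S phase (the cyclin gene Ccnd1 and the inhibitor genes Cdkn1a, Cdkn1c and Cdkn2c). They were chosen by gene symbol, and every probe that the platform annotation assigned to one of these symbols was taken from the non-normalized table. Of the 53 genes, 48 had a probe (82 probes in all) and 37 were detected, among 7082 named genes detected in the series. A gene counted as detected when the detection p of a probe, the share of negative-control probes that were brighter, was under 0.01 on at least 4 of 16 arrays. The detected members were 22 replication genes, 11 mitosis genes and all 4 regulators. The symbols Gins1, Gins2, Ccnb1, Aurkb and Mki67 were matched to no probe and were not analysed here. The replication genes Prim1, Pola1 and Pole and the mitosis genes Ccna2, Ccnb2, Bub1, Cenpe, Tpx2, Kif20a, Ube2c and Hmmr had probes that were detected on 0 arrays.

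The macrophages came from the marrow of 12 week old C57BL6 mice and were grown with macrophage colony stimulating factor. Ndst1-deficient cells were from Ndst1f/fLysMCre+ mice, in which floxed alleles of Ndst1, a gene of heparan sulfate sulfation, are exposed to Cre expressed from the lysozyme M locus, which is active in myeloid cells. The cells that the labels call wild type were from Ndst1f/fLysMCre- mice, which carry the same floxed alleles without Cre. Each genotype was measured after 24 h with 50 µg/ml aggregated LDL (agLDL), a form of lipoprotein that loads macrophages with cholesterol, and without it, both in lipoprotein-deficient serum. Each of the 4 groups held 4 single-colour Illumina arrays, from 2 mice with 2 duplicate arrays each, numbered 2.2, 2.1, 1.2 and 1.1 (mouse number, then duplicate number). Mouse 2 of one genotype and mouse 2 of the other are different animals that share a number, and what the number stands for is not stated in the labels.

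A dividing cell first loads the MCM helicase onto replication origins, then copies its DNA in S phase, and then condenses and separates its chromosomes in mitosis. Replication genes are switched on ahead of S phase by E2F transcription factors once cyclin D kinases have inactivated the retinoblastoma proteins, and many mitosis genes are switched on later, through CCAAT boxes and an element called the cell cycle genes homology region (CHR). Macrophage colony stimulating factor drives marrow macrophages through this cycle by inducing D cyclins, and CDK inhibitors of the p21 and INK4 families hold it back.

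The promoters of the members were searched for these elements. In RefSeq windows from 250 bases before to 30 bases after a transcript start (GRCm38.p6), 42 members matched 47 windows, of which 27 began at the gene table's own start and the others at the start of another transcript. An E2F-type motif (TTTCCCGC, TTTCGCGC, TTTGCCGC or TTTGGCGC, on either strand) lay in 7 of 22 windows of detected replication genes (31.8%) and in 1 of 12 windows of detected mitosis genes (8.33%), against 2.12% of all 32851 windows. A CHR motif (TTTGAA, on either strand) lay in 7 of the 12 mitosis windows (58.3%) and in 2 of the 22 replication windows (9.09%), against 17.2% of all windows. A CCAAT motif, on either strand, lay in 83.3% of the mitosis windows and 72.7% of the replication windows, against 36.1% of all. The 12 mitosis windows belong to 11 genes. Prc1 has overlapping windows that hold the same CHR and CCAAT matches and are counted separately. A match describes letters and is not evidence of binding. To show these elements in place, the windows of the 3 genes with the largest differences in each set, chosen after their values were seen, are printed 5′ to 3′ on the strand of the gene, with every match in capitals.
Mcm2: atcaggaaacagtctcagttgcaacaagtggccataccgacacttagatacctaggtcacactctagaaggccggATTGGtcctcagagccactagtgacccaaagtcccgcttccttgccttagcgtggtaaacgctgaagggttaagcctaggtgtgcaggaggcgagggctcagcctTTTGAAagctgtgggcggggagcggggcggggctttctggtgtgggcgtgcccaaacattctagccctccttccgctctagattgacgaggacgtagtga
Mcm3: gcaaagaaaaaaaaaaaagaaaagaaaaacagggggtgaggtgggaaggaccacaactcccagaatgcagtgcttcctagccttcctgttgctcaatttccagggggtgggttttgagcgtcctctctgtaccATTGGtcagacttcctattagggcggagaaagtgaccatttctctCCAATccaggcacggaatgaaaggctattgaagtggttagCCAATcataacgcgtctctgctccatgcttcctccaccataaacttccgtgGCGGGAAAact
Mcm5: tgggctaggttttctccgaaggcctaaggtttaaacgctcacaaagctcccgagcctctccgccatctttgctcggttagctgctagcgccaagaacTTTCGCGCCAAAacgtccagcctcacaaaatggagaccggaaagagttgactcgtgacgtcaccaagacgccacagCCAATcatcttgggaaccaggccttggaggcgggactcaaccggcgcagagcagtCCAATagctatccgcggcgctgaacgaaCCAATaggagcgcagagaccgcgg
Cenpa: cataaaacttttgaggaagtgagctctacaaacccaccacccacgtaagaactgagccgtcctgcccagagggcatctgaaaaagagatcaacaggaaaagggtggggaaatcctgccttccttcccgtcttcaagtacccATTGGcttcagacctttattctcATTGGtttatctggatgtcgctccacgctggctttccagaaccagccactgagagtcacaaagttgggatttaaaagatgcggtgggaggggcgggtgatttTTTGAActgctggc
Prc1: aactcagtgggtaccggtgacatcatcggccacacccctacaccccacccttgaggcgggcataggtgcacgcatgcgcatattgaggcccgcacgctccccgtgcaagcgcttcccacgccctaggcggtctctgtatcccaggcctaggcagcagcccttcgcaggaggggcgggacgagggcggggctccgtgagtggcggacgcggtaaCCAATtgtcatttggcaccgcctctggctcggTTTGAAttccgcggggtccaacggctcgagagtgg
Nusap1: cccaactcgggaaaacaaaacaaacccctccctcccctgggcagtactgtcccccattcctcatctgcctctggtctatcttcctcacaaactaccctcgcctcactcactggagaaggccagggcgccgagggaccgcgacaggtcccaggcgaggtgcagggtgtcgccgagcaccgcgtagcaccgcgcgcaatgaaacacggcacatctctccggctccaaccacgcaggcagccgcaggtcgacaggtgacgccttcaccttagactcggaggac
The Mcm3 window (chr1:20820283-20820562, minus strand) carries an E2F-type match that begins at base 20 of the transcript, and 3 CCAAT matches before it. The Mcm5 window (chr8:75109259-75109538, plus strand) carries 2 overlapping E2F-type matches, the first beginning 153 bases before the start. The Mcm2 window (chr6:88898751-88899030, minus strand) has no E2F-type match in these letters and holds a CHR match that begins 70 bases before the start. The Cenpa window (chr5:30666636-30666915, plus strand) has a CHR match that begins at base 17 of the transcript, with 2 CCAAT matches upstream. In Prc1 (chr7:80294201-80294480, plus strand) the CHR match begins 5 bases and the CCAAT match 37 bases before the start. Nusap1 (chr2:119618048-119618327, plus strand) has none of the 3 motifs in its window.

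The arrays detected 36% to 39.4% of 25697 probes each. Of 10 listed macrophage markers, 8 had a probe and all 8 were detected, while none of 6 dendritic cell, 6 T, NK and B cell, and 4 mast cell and basophil markers with a probe was detected. Ndst1 itself was not analysed here. Over the 7647 features tested, every one of the 16 arrays had as its nearest neighbour an array of the same number from another group, and none had an array of its own group. The root mean square difference in log2 signal was 0.288 ± 0.058 between arrays that shared a number (SD, 24 pairs) and 0.468 ± 0.051 between duplicates of the same mouse and treatment (SD, 8 pairs). Whether duplicates came from the same cells is not stated in the labels. Each genotype label lay on 1 slide, so slide and genotype cannot be told apart, and number and treatment together fixed the position of an array on its slide, so number and position cannot be told apart. The 4 arrays of a mouse share an animal, so p-values across arrays do not measure the spread between animals alone and may rest in part on technical spread. In bulk RNA, fewer cells in a phase and less RNA per cell cannot be told apart.

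Averaged by number, replication genes were higher on duplicate 2 of both mouse numbers. Mitosis genes were on average higher on both duplicates of mouse number 2. Averaged over the 22 detected replication genes, each centred on its own mean over the 16 arrays, the log2 signal was 0.53 ± 0.08 at number 2.2, -0.40 ± 0.08 at 2.1, 0.20 ± 0.15 at 1.2 and -0.32 ± 0.24 at 1.1 (SD, n = 4 arrays each). Averaged over the 11 mitosis genes it was 0.17 ± 0.08 at 2.2, 0.34 ± 0.23 at 2.1, -0.40 ± 0.07 at 1.2 and -0.11 ± 0.27 at 1.1. By labelled group, the replication average was 0.07 ± 0.47 in Ndst1-deficient cells with agLDL, 0.03 ± 0.42 in untreated Ndst1-deficient cells, -0.05 ± 0.55 in wild-type cells with agLDL and -0.04 ± 0.40 in untreated wild-type cells. The mitosis averages of the 4 groups lay between -0.07 and 0.06. The spread inside each group was thus several times the distance between groups. 2 arrays stood apart from the others of their number: wild type with agLDL at 1.1 had the lowest replication average (-0.67), and wild type with agLDL at 2.1 the highest mitosis average (0.69). The untreated wild-type array at 1.2 had a replication average of only 0.01, against -0.15 for its duplicate at 1.1. Mitosis averages overlapped between mouse numbers in Ndst1-deficient cells. With agLDL the average was 0.22 at 1.1 and 0.17 at 2.1, and in untreated cells it was 0.07 at 2.2.

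**Figure D1:**
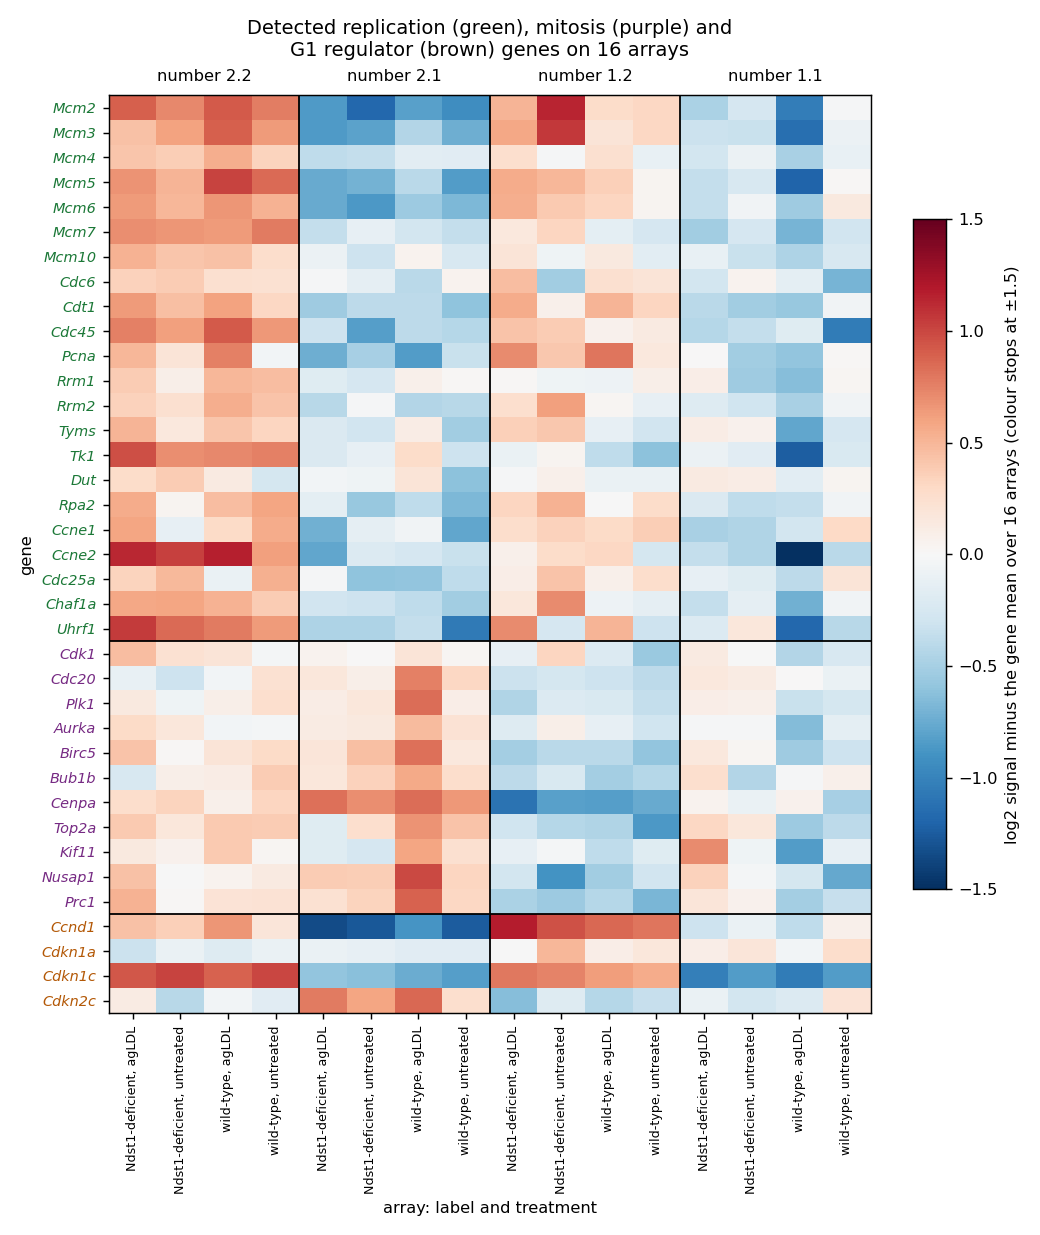
Log2 signal of the 37 detected members (rows) on 16 arrays (columns, in blocks of 4 by number), each gene centred on its own mean, with gene names coloured by set. Replication genes are high in the 2.2 block, where their average is 0.53, and mitosis genes are low in the 1.2 block, where theirs is -0.40.

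**Figure D2:**
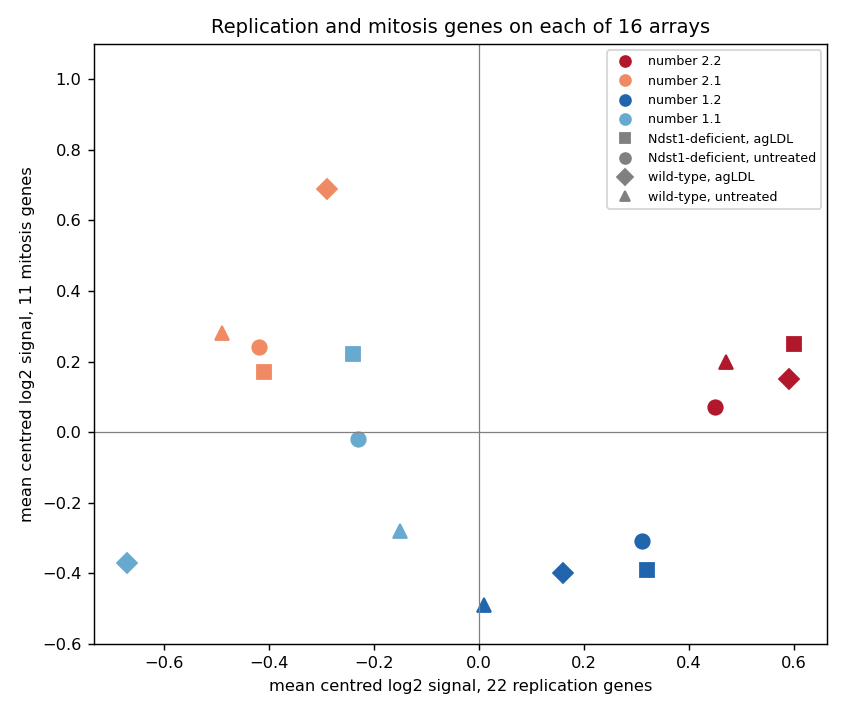
Mean centred log2 signal of the 22 replication genes (x axis) and the 11 mitosis genes (y axis) on each of the 16 arrays, coloured by number and shaped by genotype and treatment. The arrays gather by colour, with 2.2 furthest right (0.45 to 0.60 on the x axis) and 1.2 lowest (-0.49 to -0.31 on the y axis).

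The number accounted for a median of 76.7% of the variance of a replication gene over the 16 arrays, 63.4% for mitosis genes, 87.4% for the 4 regulators and 52.3% for all features. The labelled group accounted for medians of 4.74% for replication genes, 4.09% for mitosis genes, 0.802% for the regulators and 11.6% for all features. Of the 22 replication genes, 21 had their highest mean at 2.2, where 22.4% of all features were highest, and Pcna had it at 1.2. The 21 include Ccne1, which passed the detection filter through arrays of duplicate 2 alone. Of the 11 mitosis genes, 8 were highest at 2.1 (33.7% of all features) and 10 were lowest at 1.2 (33.4% of all features).

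Between duplicate numbers, over all 16 arrays with group and number in the model, replication genes were higher on duplicate 2. A Benjamini-Hochberg adjusted p under 0.05 was reached by 27 of 37 members (23 higher, 4 lower), against 48.6% of all features (23.1% higher and 25.5% lower). By set, 21 of 22 replication genes were called higher and 0 lower, with a median log2 fold change of 0.69 against -0.02 for all features. The 21 include Ccne1, which was admitted through duplicate 2 alone, where it was high. Without it the count was 20 of 21 and the median 0.69. Of 11 mitosis genes, 0 were called higher and 3 lower, with a median of -0.24. For 8 members (Mcm2, Mcm3, Mcm5, Cdt1, Cdc45, Rpa2, Ccnd1 and Cdkn1c) the lowest of the 8 arrays of duplicate 2 was above the highest of the 8 arrays of duplicate 1, as for 5.96% of all features.

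Among replication genes, the helicase genes Mcm2, Mcm3 and Mcm5 showed the largest differences. Mcm2, a subunit of the MCM ring that unwinds DNA at the fork, had log2 signals of 9.55, 9.38, 9.57 and 9.42 at number 2.2 and 9.17, 9.80, 8.93 and 8.96 at 1.2, in the order Ndst1-deficient with agLDL, Ndst1-deficient untreated, wild type with agLDL and wild type untreated. In the same order it had 7.81, 7.48, 7.84 and 7.72 at 2.1 and 8.18, 8.40, 7.62 and 8.64 at 1.1. No array of duplicate 2 overlapped one of duplicate 1, and Mcm2 was higher by 1.39 ± 0.14 (log2 fold change and SE, adjusted p = 5e-06), or 2.62-fold, in 8 of 8 pairs of arrays. Mcm3 ranged from 8.39 to 9.25 (median 8.79) on duplicate 2 and from 7.06 to 8.10 (median 7.60) on duplicate 1. Mcm5 ranged from 10.52 to 11.49 (median 11.01) on duplicate 2 and from 9.28 to 10.49 (median 9.92) on duplicate 1. Neither gene overlapped between duplicates, and their log2 fold changes were 1.18 ± 0.15 for Mcm3 (adjusted p = 3.4e-05) and 1.12 ± 0.16 for Mcm5 (adjusted p = 6.9e-05). The remaining ring subunits were higher too, Mcm6 by 0.91 ± 0.10, Mcm7 by 0.71 ± 0.08 and Mcm4 by 0.50 ± 0.08, with some overlap of arrays for each.

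The genes that load and fire the helicase were also higher. Cdt1, which with Cdc6 places the ring on the origin, ranged from 9.82 to 10.38 on duplicate 2 and from 9.14 to 9.69 on duplicate 1, with no overlap and a log2 fold change of 0.87 ± 0.09 (adjusted p = 5.7e-06). Cdc45, which joins the ring to make the active helicase, ranged from 6.39 to 7.25 on duplicate 2 and from 5.28 to 6.14 on duplicate 1, again with no overlap (0.99 ± 0.11, adjusted p = 7.4e-06). Mcm10, which acts with them at firing, was higher by 0.44 ± 0.07. Cdc6 itself was higher by 0.39 ± 0.14 (adjusted p = 0.032), a call that was lost in 9 of 16 fits that each left out 1 array (adjusted p up to 0.073).

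Fork, nucleotide and chromatin genes differed in the same direction. Pcna, the sliding clamp of the polymerases, ranged from 7.15 to 7.99 (median 7.63) on duplicate 2 and from 6.35 to 7.21 (median 6.68) on duplicate 1, higher by 0.87 ± 0.14 with a narrow overlap. Rpa2, which coats single-stranded DNA, was higher by 0.69 ± 0.10 with no overlap (6.98 to 7.58 on duplicate 2, 6.31 to 6.93 on duplicate 1). The ribonucleotide reductase genes Rrm2 and Rrm1 were higher by 0.58 ± 0.10 and 0.35 ± 0.09, thymidine kinase Tk1 by 0.52 ± 0.15 and thymidylate synthase Tyms by 0.44 ± 0.13. Dut, which removes dUTP from the nucleotide pool, was the 1 replication gene not called (0.10 ± 0.09, adjusted p = 0.39, 95% interval -0.10 to 0.30). Chaf1a, which deposits histones behind the fork, was higher by 0.69 ± 0.10, and Uhrf1, which helps copy DNA methylation to new strands, by 0.99 ± 0.18.

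Of the E cyclins, which activate CDK2 at the entry to S phase, Ccne2 ranged from 6.59 to 8.02 (median 7.32) on duplicate 2 and from 5.29 to 6.64 (median 6.46) on duplicate 1. The ranges overlapped narrowly, and the log2 fold change was 1.09 ± 0.17 (adjusted p = 0.00017). Ccne1 was detected on 6 of 8 arrays of duplicate 2 and on 0 of 8 of duplicate 1, so that it passed the detection filter through duplicate 2 alone. Its level on duplicate 1 is only a bound, and it was at least 1.04-fold higher on duplicate 2 (measured means 5.94 on duplicate 2 and 5.30 on duplicate 1). Cdc25a, the phosphatase that releases CDK2 from inhibition, was higher by 0.53 ± 0.09 in 8 of 8 pairs.

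The 3 mitosis genes called lower on duplicate 2 were Cenpa, the centromere histone (-0.63 ± 0.09, adjusted p = 6.6e-05, lower in 8 of 8 pairs), Cdc20, an activator of the anaphase-promoting complex (-0.38 ± 0.10, adjusted p = 0.0047, 8 of 8 pairs, on 1 of its 4 probes), and Bub1b, a spindle checkpoint kinase (-0.30 ± 0.11, adjusted p = 0.035, 6 of 8 pairs). The Bub1b call was lost in 9 of those 16 fits (adjusted p up to 0.085). Of all features, 25.5% were called lower on duplicate 2. The other mitosis genes lay between -0.34 and 0.07 and were not called, among them Nusap1 (-0.34 ± 0.14, adjusted p = 0.061) and Prc1 (-0.29 ± 0.12, adjusted p = 0.055).

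Of the 4 regulators, 2 were called higher and 1 lower on duplicate 2. Cdkn1c (p57), an inhibitor of cyclin-dependent kinases, had 9.95, 10.03, 9.91 and 10.02 at 2.2 and 9.81, 9.76, 9.65 and 9.58 at 1.2. It had 8.43, 8.39, 8.28 and 8.20 at 2.1 and 8.0, 8.18, 7.97 and 8.18 at 1.1. Every array of duplicate 2 lay above every array of duplicate 1, and the log2 fold change was 1.63 ± 0.06 (3.10-fold, adjusted p = 4.2e-10). Ccnd1, which encodes cyclin D1, ranged from 12.64 to 13.64 on duplicate 2 and from 11.12 to 12.53 on duplicate 1, without overlap (1.36 ± 0.10, adjusted p = 2.6e-07). Cdkn2c (p18), an inhibitor of the cyclin D kinases CDK4 and CDK6, was lower (-0.53 ± 0.11, adjusted p = 0.0017, lower in 7 of 8 pairs). Cdkn1a (p21), an inhibitor induced by p53, was not called (0.01 ± 0.06, 95% interval -0.12 to 0.15).

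**Figure D3:**
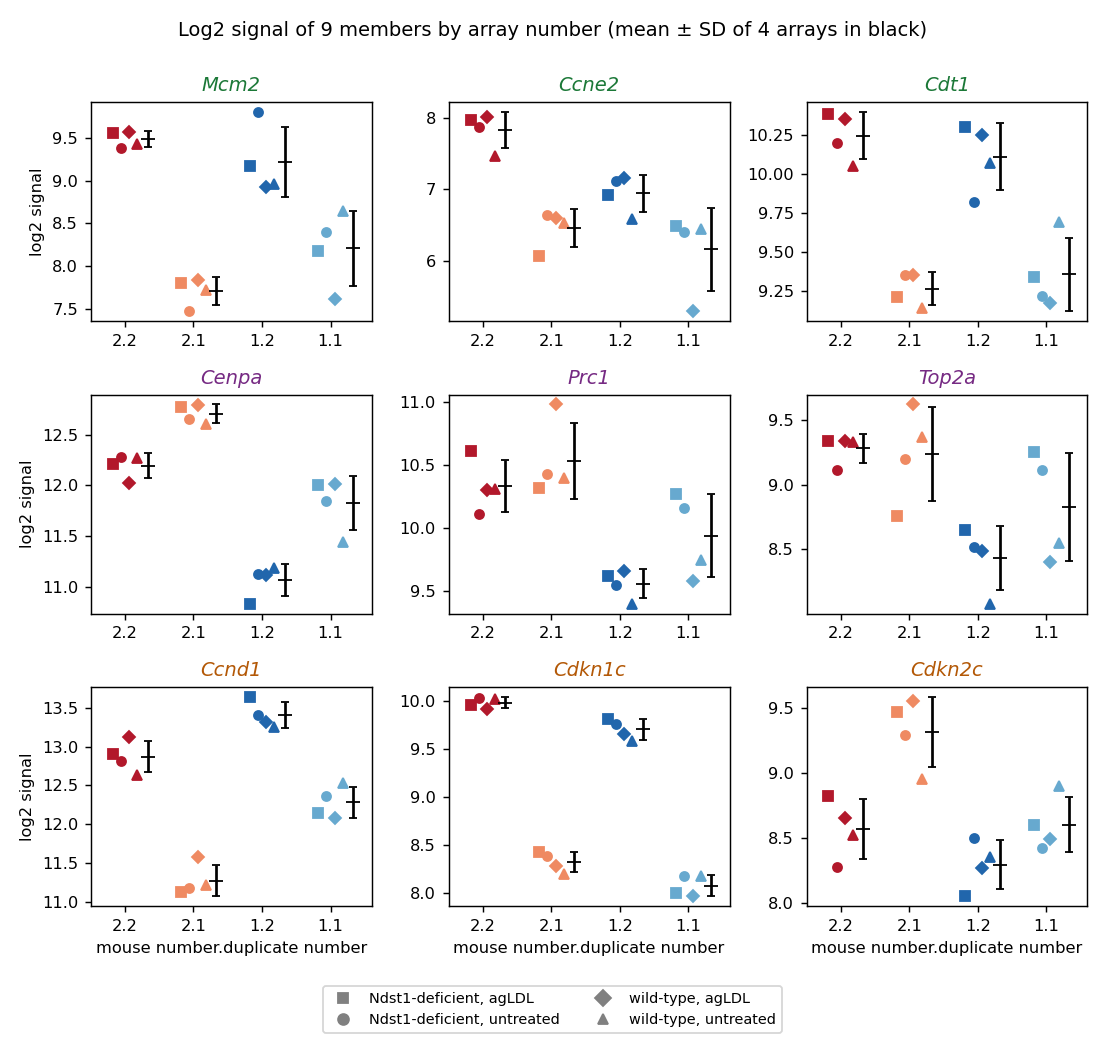
Log2 signal of 9 members (panels, y axis) on each array, by number (x axis), with marker shape for genotype and treatment and black bars for the mean ± SD of 4 arrays. Mcm2, Cdt1, Ccnd1 and Cdkn1c do not overlap between duplicate numbers, and Cenpa does not overlap between mouse numbers.

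The replication difference was present in both mouse numbers. It was smallest between the untreated wild-type arrays of mouse number 1 (averages of 0.01 at 1.2 and -0.15 at 1.1). Between 2.2 and 2.1, 20 of 22 replication genes were called higher (18.3% of all features) and 19 did not overlap (19.4% of all features), with a median of 0.89. Between 1.2 and 1.1, 14 of 22 were called higher (13.2% of all features) and 8 did not overlap (11.6% of all features), with a median of 0.50. Ccne1, admitted through duplicate 2 alone, is among the 22 genes tested in both mouse numbers. The difference between these differences was above 0 for 22 of 22 replication genes, with a median of 0.35 against 0.02 for all features, but it was called for 0 of 37 members (7 at an unadjusted p under 0.05 in limma, smallest adjusted p = 0.26) and for 0.105% of all features. Of mitosis genes, 2 of 11 were called lower between 2.2 and 2.1 (18.6% of all features) and 1 of 11 between 1.2 and 1.1 (15.7% of all features). Within slides, the duplicate comparison called 24 members on the Ndst1-deficient slide alone (beside 2025 of 7647 features) and 21 on the wild-type slide alone (beside 2269).

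Between mouse numbers, mitosis genes were higher in mouse number 2. Members called were 19 of 37 (17 higher, 2 lower), against 33% of all features (18.1% higher and 14.9% lower). Of 11 mitosis genes, 10 were called higher and 0 lower, with a median log2 fold change of 0.42 against 0.01 for all features. Of 22 replication genes, 5 were called higher and 0 lower, with a median of 0.11 (-0.08 with only the arrays of duplicate number 1). Between 2.2 and 1.2, 5 mitosis genes were called higher (9.7% of all features) and 7 did not overlap (11.6% of all features). Between 2.1 and 1.1, 5 were called higher (9.65% of all features) and 3 did not overlap (11.9% of all features). The comparison rests on 2 against 2 animals: with 1 value per mouse it called 12 members (10 higher, 2 lower) and 1640 of 7647 features. With only the arrays of duplicate number 1 it called 3 members (beside 1069 features). On the Ndst1-deficient slide alone it called 3 (beside 783 features), and on the wild-type slide alone 13 (beside 1149 features). The mitosis median was 0.22 on the Ndst1-deficient slide and 0.69 on the wild-type slide, each a comparison of single animals.

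Cenpa had 12.21, 12.28, 12.02 and 12.27 at 2.2 and 12.77, 12.65, 12.79 and 12.60 at 2.1. It had 10.84, 11.13, 11.12 and 11.19 at 1.2 and 12.00, 11.85, 12.01 and 11.45 at 1.1. Every array of mouse number 2 was above every array of mouse number 1, as for 1.41% of all features, and the log2 fold change was 1.00 ± 0.09 (adjusted p = 2.5e-06). Cenpa was thus highest at 2.1 and lowest at 1.2.

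Genes of the spindle and of chromosome structure came next in size. Prc1, which bundles the central spindle, had 10.61, 10.11, 10.30 and 10.31 at 2.2 and 10.32, 10.43, 10.98 and 10.40 at 2.1, against 9.62, 9.55, 9.66 and 9.40 at 1.2 and 10.27, 10.16, 9.58 and 9.75 at 1.1. The ranges of the mouse numbers overlapped through the 1.1 arrays of the Ndst1-deficient cells, and Prc1 was higher by 0.68 ± 0.12 (adjusted p = 0.00067, 8 of 8 pairs). Nusap1, a spindle-associated protein, was higher by 0.67 ± 0.14 (adjusted p = 0.0025, 8 of 8 pairs). Birc5 (survivin), of the chromosomal passenger complex, was higher by 0.64 ± 0.12 (adjusted p = 0.0011), and Top2a, which untangles sister chromatids, by 0.63 ± 0.15 (adjusted p = 0.0057). Kif11, the kinesin that separates spindle poles, was the 1 detected mitosis gene not called (0.26 ± 0.19, adjusted p = 0.33, 95% interval -0.15 to 0.66).

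Kinase and checkpoint genes differed by less. The polo kinase gene Plk1 was higher by 0.41 ± 0.11, the Aurora kinase gene Aurka by 0.34 ± 0.10 and Bub1b by 0.42 ± 0.11. Cdk1, the kinase that drives entry into mitosis, was higher by 0.28 ± 0.10 (adjusted p = 0.04) and Cdc20 by 0.27 ± 0.10 (adjusted p = 0.04). Both of these calls, and that of the replication gene Rrm1 (0.27 ± 0.09, adjusted p = 0.041), were each lost in 9 to 11 of 16 fits with 1 array left out (adjusted p up to 0.092).

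The other replication genes called higher in mouse number 2 were Tk1 (0.69 ± 0.15, adjusted p = 0.0037), Ccne2 (0.60 ± 0.17, adjusted p = 0.017), Mcm7 (0.42 ± 0.08, adjusted p = 0.0014) and Mcm10 (0.26 ± 0.07, adjusted p = 0.0092). The helicase genes with the largest duplicate differences were not called: Mcm2 differed by -0.12 ± 0.14, Mcm3 by -0.07 ± 0.15 and Mcm5 by 0.09 ± 0.16 between mouse numbers, with 95% intervals inside -0.43 to 0.43. All 4 regulators were called. Ccnd1 was lower in mouse number 2 (-0.77 ± 0.10, adjusted p = 5.8e-05, 8 of 8 pairs). Cdkn1a was lower (-0.32 ± 0.06, adjusted p = 0.0018), and its arrays did not overlap between mouse numbers, as for 2.75% of all features in that direction. Cdkn2c was higher by 0.49 ± 0.11 (adjusted p = 0.0046) and Cdkn1c by 0.26 ± 0.06 (adjusted p = 0.003).

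The combinations of both calls differed between the sets. Of the 22 replication genes, 16 were called higher with duplicate number only (15% of all features) and 5 higher with both numbers (1.78% of all features). The 16 include Ccne1, which was admitted through duplicate 2 alone, where it was high. Of the 11 mitosis genes, 7 were called higher with mouse number only (6.26% of all features) and 3 were higher in mouse number 2 and lower on duplicate 2 (10.1% of all features). Ccnd1 was the 1 member that was higher on duplicate 2 and lower in mouse number 2, a combination shown by 6.34% of all features.

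**Figure D4:**
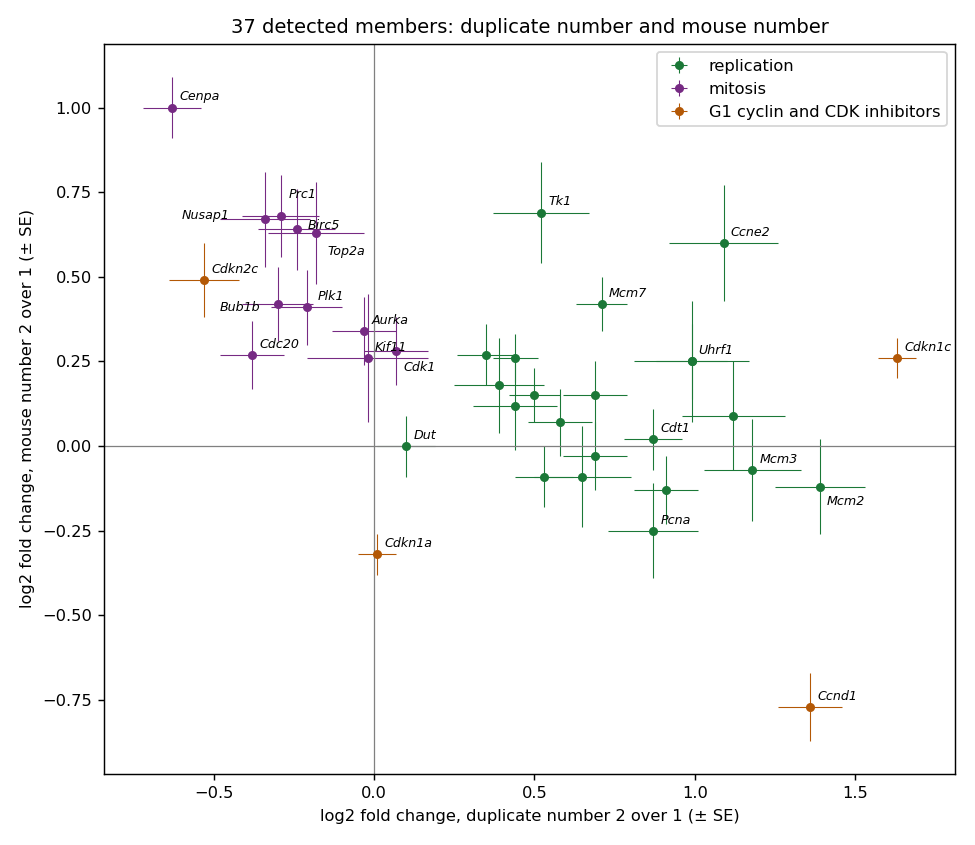
Log2 fold change of each detected member between duplicate numbers (x axis, 2 over 1) and between mouse numbers (y axis, 2 over 1), with SE bars, coloured by set. Replication genes lie to the right of 0 on the x axis (0.10 to 1.39) and mitosis genes above 0 on the y axis (0.26 to 1.00).

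Of 10 members with more than 1 detected probe, all 10 had the same sign on every probe in both number comparisons, and 0 had probes called in opposite directions. Every probe was called for 7 of the 8 members with any probe called between duplicate numbers, and for 5 of 8 between mouse numbers. The exception between duplicate numbers was Cdc20, whose other 3 probes gave -0.21, -0.07 and -0.02 (adjusted p = 0.14, 0.77 and 0.91), so that its call rests on 1 of 4 probes. Between mouse numbers the exceptions were Mcm10, Cdc20 and Rrm2. The other Mcm10 probe gave 0.23 (adjusted p = 0.072 in limma), and Cdc20 probes at 0.16 and 0.05 were not called (adjusted p = 0.33 and 0.84). For Rrm2, not called here, the other probe was called (0.38, adjusted p = 0.037).

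Markers of other cells moved with the numbers. The summed signal of 10 stromal and endothelial markers (neqc intensity less the offset, of which Col1a1, Sparc and Acta2 were detected and Col1a2, Col3a1, Dcn, Pdgfrb, Pecam1, Cdh5 and Lum were not) was 653 to 965 in mouse number 2 and 2130 to 3010 in mouse number 1. That of 7 neutrophil markers (6 detected) was 18800 to 26200 in mouse number 2 and 14800 to 20100 in mouse number 1. With duplicate number, 4 of 5 detected markers of granulocyte and monocyte progenitors, such as the myeloperoxidase gene Mpo (0.67 ± 0.16), were called higher on duplicate 2 (23.1% of all features), while Ms4a3, Cd34 and Myb were not detected. The summed signal of these progenitor markers was 369 to 482 at 2.2 and 393 to 590 at 2.1, and 653 to 808 at 1.2 and 239 to 386 at 1.1, so in mouse number 2 the duplicates overlapped. Of 8 macrophage markers, 5 were called lower on duplicate 2 (25.5% of all features), among them Adgre1, which encodes F4/80 (-0.55 ± 0.06). In mouse number 2, 4 macrophage markers were called higher (18.1% of all features) and 2 lower (14.9% of all features). The part of these cells in the replication and mitosis differences was not tested.

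Further genes of the same processes, in lists chosen with earlier results of these data known, gave the following counts, beside 23.1% of all features called higher and 25.5% lower on duplicate 2, and 18.1% higher and 14.9% lower in mouse number 2. Of 21 further replication genes detected, 14 were called higher and 0 lower on duplicate 2 (median 0.36), such as Cdc7 (0.89 ± 0.12), a kinase that fires origins, and Chaf1b (0.81 ± 0.09), a partner of Chaf1a. In mouse number 2 the same list had 4 higher and 2 lower (median 0.06). Of 30 further mitosis genes detected, 17 were called higher and 0 lower in mouse number 2 (median 0.40), with the largest changes in Cdca3 (0.60 ± 0.09), a cell division gene, the kinesin gene Kif23 (0.57 ± 0.11) and the anillin gene Anln (0.57 ± 0.12), both of cytokinesis. On duplicate 2 that list had 4 higher and 8 lower (median -0.05). Of 10 genes of E2F and retinoblastoma proteins, 5 were called higher on duplicate 2, with E2f6 (0.60 ± 0.07), E2f3 (0.58 ± 0.08) and Tfdp1 (0.41 ± 0.08) in front, and 1 lower, Rb1 (-0.36 ± 0.07). In mouse number 2 E2f2 (0.51 ± 0.11) and E2f1 (0.24 ± 0.07) were higher and E2f3 (-0.49 ± 0.08) and E2f4 (-0.21 ± 0.06) lower.

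The labelled comparisons ask whether Ndst1 deficiency or loading with agLDL changed these genes, and no member passed the test in any of them. Averaging the duplicates left 2 values per group. In limma, 0 of 37 members and 0 of 7647 features (0%) were called with agLDL in either genotype, between genotypes with or without agLDL, and in the interaction, and the smallest adjusted p of a member was 0.9998. At an unadjusted p under 0.05 there was 1 member with agLDL in wild-type cells (beside 45 features) and 1 between genotypes with agLDL (beside 201). There were 0 members with agLDL in Ndst1-deficient cells (beside 236 features), between untreated genotypes (beside 383) and in the interaction (beside 77). Groups that did not overlap were shown by 0 members, higher or lower. Among all features they were shown by 1.14% (higher) and 0.628% (lower) with agLDL in Ndst1-deficient cells and by 0.458% and 0.51% in wild-type cells. Between genotypes these shares were 1.14% (higher) and 1.27% (lower) with agLDL, and 1.19% and 2.41% without it.

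The member below an unadjusted p of 0.05 was Cdc25a both times. With agLDL it had 6.79, 6.30, 6.96 and 6.49 in wild-type cells (numbers 2.2, 2.1, 1.2 and 1.1), against 7.42, 6.5, 7.15 and 7.08 in untreated wild-type cells. The ranges overlapped, with the agLDL array lower in 4 of 4 pairs (-0.40 ± 0.13, unadjusted p = 0.021 in limma). Ndst1-deficient cells with agLDL had 7.22, 6.87, 6.98 and 6.76, against the same wild-type arrays with agLDL (0.33 ± 0.13, unadjusted p = 0.048 in limma), so the 2 comparisons share those arrays.

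The other members with the smallest p in each direction were the following, none of them called. With agLDL in Ndst1-deficient cells, Rrm1 gave 0.27 ± 0.21, Rpa2 0.23 ± 0.16 and Pcna 0.22 ± 0.19, and Cdkn1a -0.19 ± 0.21, Chaf1a -0.18 ± 0.18 and Rrm2 -0.14 ± 0.13. With agLDL in wild-type cells, Cdc45 gave 0.27 ± 0.21, Dut 0.25 ± 0.17 and Uhrf1 0.23 ± 0.19, and Mcm2 -0.19 ± 0.24 and Rrm1 -0.18 ± 0.21. Between Ndst1-deficient and wild-type cells without agLDL, Dut (0.36 ± 0.17) and Uhrf1 (0.36 ± 0.19) were above 0 in 4 of 4 pairs and Rrm1 (-0.34 ± 0.21) below in 4 of 4. In the same comparison Chaf1a gave 0.29 ± 0.18, Ccne1 -0.20 ± 0.16 and Cdc25a -0.12 ± 0.13. With agLDL, Uhrf1 gave 0.33 ± 0.19 and Rpa2 0.20 ± 0.16, and Ccne1 -0.15 ± 0.16, Cdc20 -0.12 ± 0.22 and Plk1 -0.12 ± 0.27. In the interaction (the agLDL difference in Ndst1-deficient cells less that in wild-type cells), Rrm1 gave 0.46 ± 0.30, Cdc25a 0.45 ± 0.19 and Rpa2 0.33 ± 0.22, and Dut -0.29 ± 0.24, Cdk1 -0.15 ± 0.30 and Rrm2 -0.09 ± 0.18. Between genotypes with agLDL, 20 of 22 replication genes were above 0 (median 0.09, against 0 for all features, of which 3947 of 7647 were above 0). That median changed sign with single arrays left out: it was -0.14 without the wild-type array 2.1, -0.13 without the Ndst1-deficient array 2.2, -0.06 without the wild-type array 1.1, -0.03 without the Ndst1-deficient array 1.2 and up to 0.38 with another array left out. Such a fit leaves a single duplicate number in the average of that mouse, so its median takes up part of the duplicate difference. These fits therefore do not show whether the sign rests on single arrays.

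The precision was low. Over the 4 comparisons the members' 95% intervals in the fit of averages reached from -1.36 to 1.43, and for Mcm2 with agLDL in wild-type cells the interval was -0.77 to 0.39. With the number as a replicate block on the 16 arrays, 0 members were called in the 5 comparisons, where 0.955% of all features were called between untreated genotypes, 0.0131% with agLDL in Ndst1-deficient cells, 0.0131% between genotypes with agLDL and 0% in the others. Between 1 and 3 members were then under an unadjusted p of 0.05 in a comparison, beside 9.79% of all features for agLDL in Ndst1-deficient cells, 2.82% for agLDL in wild-type cells, 7.96% and 14.3% between genotypes with and without agLDL, and 3.82% for the interaction. The 3 between untreated genotypes were Dut (0.36 ± 0.13), Rrm1 (-0.34 ± 0.13) and Cdk1 (0.34 ± 0.14). Intervals were narrower with this block, from -0.69 to 0.89 over the 4 comparisons and -0.63 to 0.25 for Mcm2 with agLDL in wild-type cells. That fit counts the arrays of a mouse as separate, so its intervals rest in part on technical spread.

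**Figure D5:**
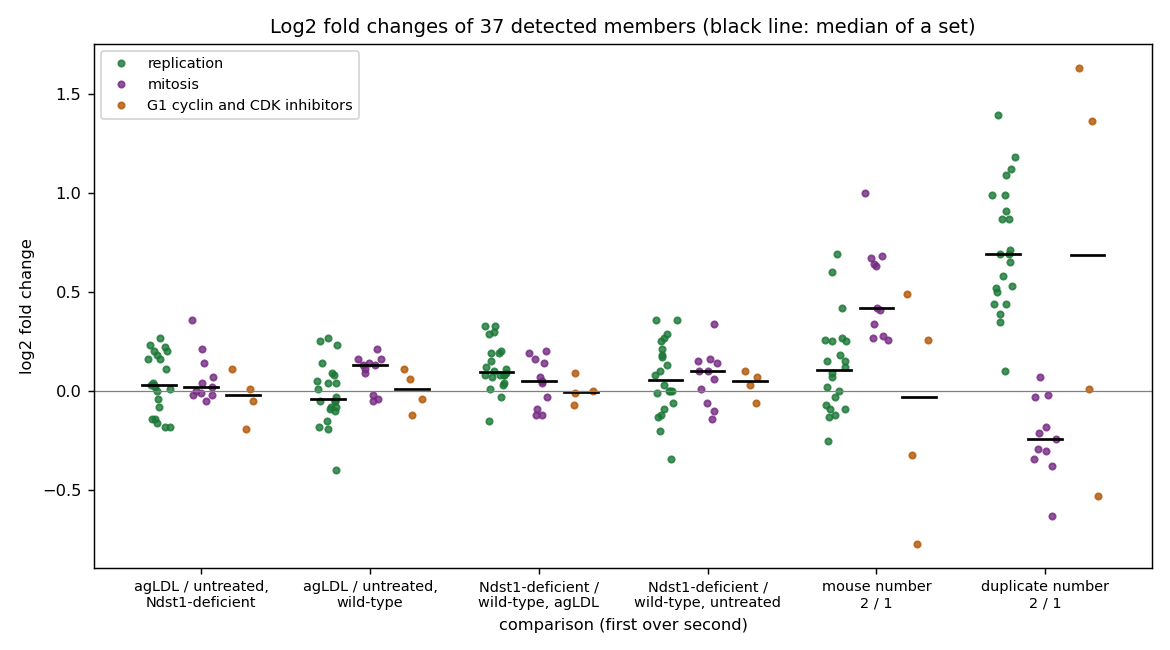
Log2 fold changes of the 37 detected members (points, by set) in the 4 labelled comparisons and the 2 comparisons of numbers (x axis, first over second), with the median of each set as a black line. In the labelled comparisons the points lie between -0.40 and 0.36, and between duplicate numbers from -0.63 to 1.63.

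By likeness of pattern over the 16 arrays, with the mean of each labelled group removed, the genes closest to Top2a among 7045 named genes outside the members were Kif18b (Pearson r = 0.939), H2ac15 (0.928), Cdca3 (0.914), Pbk (0.907) and Anln (0.900). Those closest to Mcm5 were Nanos1 (r = 0.972), Nrcam (0.966), Erh (0.959), Ipo5 (0.959) and Psat1 (0.954). The arrays share mice and numbers, so these values describe the 16 arrays and carry no p.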

How the data were processed

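Mouse arrays (16, in 4 groups of 4) were deposited as 1 table of mean bead intensities, each with a detection p-value, per the file headers. The values are neither background-subtracted nor normalized between arrays. Per the submitters' processing notes GenomeStudio was used (version and settings not given in the sources used here). A second table of the authors' own intensities of the same arrays (linear scale, column medians 11.2 to 11.3, not centred per gene, normalization unstated) served as an alternative.

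With limma 3.58.1 and statmod 1.5.0 in R 4.3.3, neqc estimated the background of each array by way of its detection p-values (signals of control probes were not used here) and corrected for it with the normexp model. The signals, with 16 added as offset, were quantile normalized and put on a log2 scale. Probes with a detection p under 0.01 on at least 4 of 16 arrays were kept (10224 of 25697). The probe detected on most arrays, then the brightest, stood for its gene, giving 7647 features (7082 named genes and 565 unnamed probes). Symbols came from the platform annotation: 23978 probes had 1 symbol, 0 had several and 1719 were unlisted. Labelled comparisons were fitted on 8 averages of duplicate arrays (4 residual degrees of freedom), and number comparisons on 16 arrays with group and number as terms (9 residual degrees of freedom), with Benjamini-Hochberg adjustment over all features at 0.05. A fold against a side with no array detected is a bound: the mean of the bright side against, per array, the higher of the probe's own value and the lowest detected value. The fits were run on simulated arrays with independent noise and known changes. Those arrays shared no further effect of mouse or number, so that run does not show whether the p-values hold in this design. The number of arrays limits the precision.

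The numbers pair the arrays: deviations from group means correlated between 0.468 and 0.830 in 24 pairs of same-numbered arrays, and between 0.589 and 0.772 in 12 pairs of averages of one mouse number. No 2 arrays held identical values. The members, gene lists, motifs and comparisons were chosen with earlier results of these data known. Members were named by rule (in each set the 5 largest called changes each way for the numbers, the 3 smallest p each way for the labelled comparisons, all regulators) and otherwise by role. The likeness search for Mki67 was not run because that gene was not analysed here. Alternatives were other background corrections, normalizations and detection filters, every probe as its own feature, blocks, single slides, mouse or duplicate numbers, leaving out each array and, added after seeing the data, leaving out of the duplicate count a member that one side did not detect.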

Additional observations from a re-analysis of the deposited data

Results flagged for a closer look

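In 296 sets of 4 arrays (each of 37 members in each labelled group and in each number), 17 held an array whose gap to its nearest neighbour exceeded Dixon's 95% limit for 4 values. Chance gives about 5%, or 14.8 sets, and the labelled groups and the numbers divide the same arrays, so these sets are not independent. Among the untreated wild-type arrays, number 2.2 stood above the other 3 with log2 signals of 11.62 for Mcm4 (others 11.12 to 11.17), 8.45 for Mcm7 (others 7.32 to 7.42), 9.07 for Mcm10 (others 8.57 to 8.65), 9.63 for Rrm1 (others 9.19 to 9.25) and 7.47 for Ccne2 (others 6.44 to 6.59). Among the Ndst1-deficient arrays with agLDL, number 2.2 stood above the rest with 10.57 for Tk1 (others 9.39 to 9.52), and number 1.2 below them with 7.84 for Plk1 (others 8.39 to 8.43) and 7.16 for Nusap1 (others 7.78 to 7.88). Among the untreated Ndst1-deficient arrays, number 1.2 was low with 8.52 for Top2a (others 9.11 to 9.20). Within number 2.1, the wild-type array with agLDL was high with 9.13 for Plk1 (others 8.39 to 8.46), 8.42 for Nusap1 (others 7.76 to 7.82) and 10.98 for Prc1 (others 10.32 to 10.43). In the same number the untreated Ndst1-deficient array was high with 6.22 for Rrm2 (others 5.80 to 5.82), and the untreated wild-type array was low with 7.87 for Uhrf1 (others 8.46 to 8.57). Within number 1.1, the wild-type array with agLDL was low with 8.37 for Tk1 (others 9.38 to 9.52) and 5.29 for Ccne2 (others 6.40 to 6.49). Within number 2.2, the untreated Ndst1-deficient array was low with 9.11 for Top2a (others 9.33 to 9.34).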

How the results depend on the processing

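No called member and no count of calls changed direction under the alternatives run, and the 5 labelled comparisons called 0 members under each of them. Medians near 0 did change sign: the replication median between mouse numbers was -0.08 with only the arrays of duplicate number 1 (0.11 with all arrays). With 1 array left out, the replication and mitosis medians of the labelled comparisons lay on both sides of 0 in all 5, the widest being the interaction for replication (-0.27 to 0.34). Those fits leave a single duplicate number in the average of a mouse, so the duplicate difference enters these medians. The duplicate comparison called 27 members, 13 with only the arrays of mouse number 1 (1522 of 7647 features called) and 25 to 29 with 1 array left out. The mouse comparison called 19 members, 12 with 1 value per mouse (1 residual degree of freedom), 3 with only the arrays of duplicate number 1, 3 with only the Ndst1-deficient slide, and 16 to 19 with 1 array left out. These alternatives fit 8 arrays or 4 values in place of 16. The mitosis median between mouse numbers also differed between slides (0.22 on the Ndst1-deficient slide, 0.69 on the wild-type slide). Of single calls, 25 of 27 for duplicate number and 16 of 19 for mouse number were kept whichever array was left out. Under the other background corrections, normalizations and detection filters the counts stayed within 1.5 times those reported. With the number as a replicate block, or the mouse number on the 8 averages, 0 members were called in the labelled comparisons, so the pairing changed the call of no member. Among all features the number block called 73 between untreated genotypes, where the fit of averages called 0. Without background correction the median replication difference between duplicates was 0.45 in place of 0.69, and the median mitosis difference between mouse numbers 0.30 in place of 0.42. Cdc6, Cdc45, Rrm2, Dut, Ccne1, Ccne2 and Kif11 were not detected on every array, so signals near background limit their values.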

Other observations

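Further cell cycle genes were measured in the same fits, in which 23.1% of all features were called higher and 25.5% lower on duplicate 2, and 18.1% higher and 14.9% lower in mouse number 2. The counts that follow come from short lists and are given as values beside those shares. Of 8 detected genes of D cyclins, G1 kinases and their inhibitors, 4 were called higher and 2 lower on duplicate 2. The lower ones were Cdkn1b, which encodes the inhibitor p27 (-0.85 ± 0.11, detected on 10 arrays), and Ccnd3 (-0.30 ± 0.06), while Skp2, which encodes the ubiquitin ligase subunit that targets p27, was higher (0.27 ± 0.08). In mouse number 2, 2 of the 8 were called higher and 2 lower, with log2 fold changes over the list from -2.12 to 0.38. Of 11 detected p53 targets, 3 were called higher on duplicate 2, Plk2 (1.52 ± 0.08), Gadd45a (1.44 ± 0.10) and Mdm2 (0.42 ± 0.06), and 4 lower, led by Sesn1 (-0.76 ± 0.07), Trp53inp1 (-0.75 ± 0.09) and Bbc3 (-0.65 ± 0.11). In mouse number 2, 1 of the 11 was called higher and 4 lower, among them Phlda3 (-0.66 ± 0.06).

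Of 6 detected genes of macrophage growth factor signalling, 1 was called higher and 3 lower on duplicate 2, beside 23.1% higher and 25.5% lower of all features. The higher one was Egr2, an early response transcription factor (1.93 ± 0.12), which was also higher in mouse number 2 (0.71 ± 0.12). Of the genes listed under further mitosis genes, Cdca7 (1.78 ± 0.14) and Mybl2 (1.09 ± 0.19) were higher on duplicate 2, where 8 genes of that list were lower. A place in that list does not show that a gene acts in mitosis.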
